A study of Mus musculus with 12 samples.

Results

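Messenger RNA of 8 genes of the lytic and apoptotic cell death machinery was followed in Myc-CaP prostate cancer cells treated with oxaliplatin (Oxali), interferon γ (IFNγ) or both. The genes were Casp1, Casp4, Casp8, Gsdmd, Mlkl, Ripk1, Ripk3 and Zbp1, taken by symbol from a count table of 55216 genes, and all 8 were found in it. Of these, 7 were among the 13177 genes with enough counts to be tested. Casp1 was not. Casp4 and Zbp1 passed only through Combo2000, the group in which they were high, and so had to differ between groups. These 3 genes are described by their raw counts with no p, and genes are counted as called only among the other 5.

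Myc-CaP is an established line from a prostate tumour of a male FVB/NJ mouse that overexpresses Myc, and all groups are this 1 line, grown in culture. The cells were left untreated (Ctrl) or were treated for 48 h with 2 μM Oxali, a platinum drug that crosslinks DNA, with IFNγ at 200 pg (IFN200) or 2000 pg (IFN2000), or with Oxali plus either IFNγ dose (Combo200 and Combo2000). The labels give the IFNγ dose without a volume, whereas the study states its IFNγ doses per mL. According to the study, the drug doses were chosen to cause little cell death and living cells were analysed. Each group had 2 RNA-seq libraries, with 18749975 to 25931516 counts per library. Titles and agent labels disagree for the 6 libraries that received a single treatment, where those titled IFN200 carry the agent Oxali, those titled IFN2000 the lower IFNγ dose and those titled Oxali the higher one. The titles define the groups here, so that every value given for Oxali, IFN200 or IFN2000 rests on them, whereas Ctrl, Combo200 and Combo2000 carry labels without conflict.

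Caspase-8 is the initiator protease below death receptors and starts apoptosis. Where it is held back, RIPK1 and RIPK3 assemble through a shared interaction motif, and RIPK3 phosphorylates MLKL, which then breaks the plasma membrane in necroptosis. ZBP1 senses nucleic acids in the Z conformation and carries the same motif, by which it reaches RIPK3. Caspase-1 and caspase-4 (called caspase-11 in the mouse) are the inflammatory caspases that cut gasdermin D, the pore former of pyroptosis, and several of these genes are known as targets of interferons.

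Counts scaled to a common library size (CPM, as edgeR gives them) stand for the level of a gene, and CPM per kb of annotated exon were used only where genes were set against each other. Positions refer to mouse build GRCm38. Casp1 (chromosome 9, 5298517 to 5307265, plus strand) and Casp4 (chromosome 9, 5308828 to 5336783, plus strand) lie next to each other. Casp8 lies on chromosome 1 (58795374 to 58847503, plus strand), Gsdmd on chromosome 15 (75862327 to 75867408, plus strand) and Mlkl on chromosome 8 (111311797 to 111338177, minus strand). Ripk1 lies on chromosome 13 (34002363 to 34037147, plus strand), Ripk3 on chromosome 14 (55784995 to 55788865, minus strand) and Zbp1 on chromosome 2 (173206612 to 173218923, minus strand). Exons of Ripk1 overlap Serpinb6a on the opposite strand over 241 bases and the pseudogene Gm17084 on the same strand over 511 bases, so that reads there may be shared between these genes.

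Promoter sequence from RefSeq on GRCm38.p6, running from 250 bases before to 50 bases after an annotated start, was found for 6 of the 8 genes, namely Casp1, Casp4, Casp8, Mlkl, Ripk1 and Ripk3. The windows were searched on both strands for the GAS element known from IFNγ-inducible promoters (TTCNNNGAA), the core of the interferon-stimulated response element (ISRE, which reads GAAA, then 2 bases of any kind, then GAAA) and the NF-κB site. Of 32851 promoter windows of the same length, 8.3% held a GAS element, 3.44% an ISRE core and 8.46% an NF-κB site. Windows of Casp1, Casp8, Mlkl and Ripk3 held none of the 3 motifs. The windows of Casp4 and Ripk1 are shown over the 250 bases before the start, since they are the ones with a match, and the neighbouring second start of Casp4 holds the same matches. In Casp4 (chr9:5308599-5308848, plus strand) the capitals mark the NF-κB matches, the first of which holds overlapping matches on both strands:
Casp4: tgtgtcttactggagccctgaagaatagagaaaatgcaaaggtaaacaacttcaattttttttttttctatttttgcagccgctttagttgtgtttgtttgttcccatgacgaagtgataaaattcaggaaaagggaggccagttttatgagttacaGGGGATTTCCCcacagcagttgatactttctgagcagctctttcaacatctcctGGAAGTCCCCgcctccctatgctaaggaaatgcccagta
In the second of 2 annotated starts of Ripk1 (chr13:34002624-34002873, plus strand) the capitals mark 2 GAS matches, the second of which runs into an ISRE match, GAAATCGAAA, that crosses the start:
Ripk1: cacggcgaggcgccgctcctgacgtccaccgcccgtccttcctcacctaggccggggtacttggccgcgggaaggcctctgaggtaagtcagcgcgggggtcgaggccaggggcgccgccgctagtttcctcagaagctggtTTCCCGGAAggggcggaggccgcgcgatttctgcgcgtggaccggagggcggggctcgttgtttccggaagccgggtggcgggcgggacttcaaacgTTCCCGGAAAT
A match describes these letters only, and binding was not measured here.

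In untreated cells Casp8, Mlkl, Ripk1, Ripk3 and Gsdmd were present, and Casp1, Casp4 and Zbp1 were not detected. On the scale of CPM per kb, Casp8 stood at 14.0 ± 0.686 (SD, n = 2), Mlkl at 13.1 ± 0.163, Ripk3 at 8.54 ± 0.629, Ripk1 at 5.46 ± 0.0396 and Gsdmd at 0.663 ± 0.209. In Combo2000 this order had changed, with Mlkl first at 26.3 ± 0.375, then Casp8 at 21.6 ± 0.460, Ripk1 at 7.92 ± 0.0813, Ripk3 at 6.41 ± 0.200 and Gsdmd at 3.09 ± 0.0608. The last 3 were Zbp1 at 0.530 ± 0.111, Casp1 at 0.187 ± 0.0201 and Casp4 at 0.170 ± 0.0426, and these last values of Casp1 and Casp4 differed by less than their spread. The level per kb depends on the annotated exon length, which for Ripk1 (8344 bases) is more than that of the other genes (1497 to 3710 bases). Since the libraries are from bulk RNA, fewer cells that express a gene and less of its RNA per cell cannot be told apart.

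**Figure D1:**
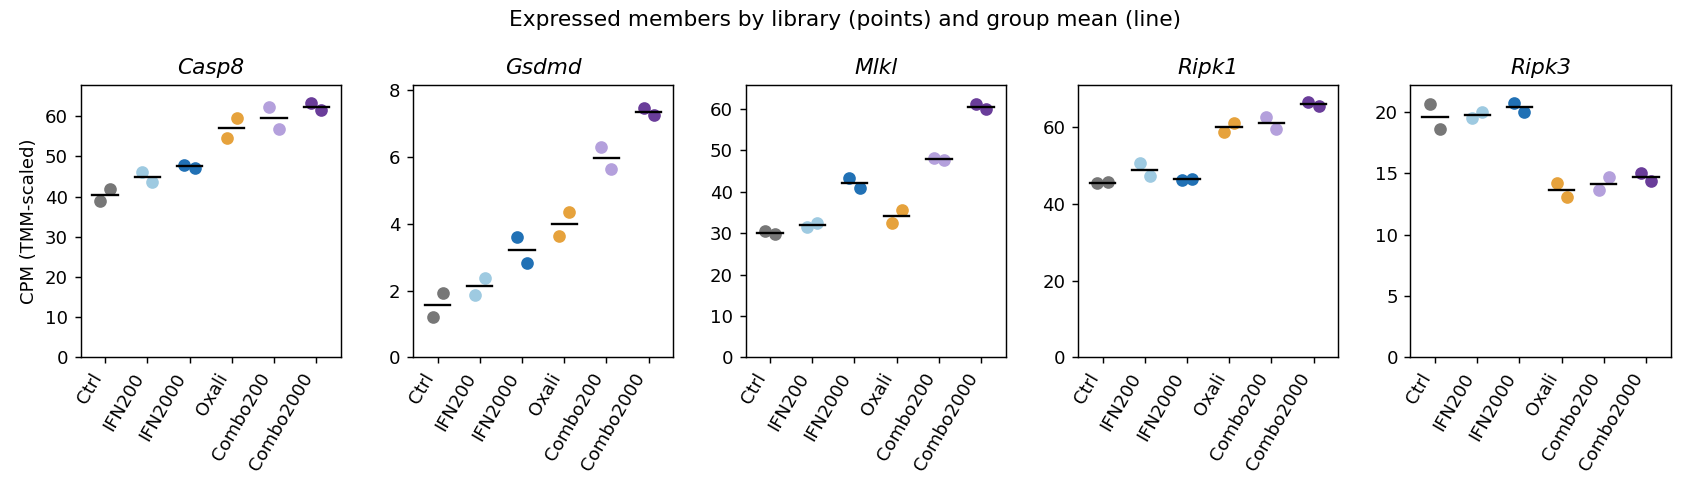
Levels of Casp8, Gsdmd, Mlkl, Ripk1 and Ripk3 in CPM (vertical axis, from 0) in the 6 groups (horizontal axis), with a point per library and a line at the group mean. Mlkl rises from 29.9 to 30.4 CPM in Ctrl to 59.9 to 61.1 CPM in Combo2000, while Ripk3 is lower in all 6 libraries with Oxali than in the 6 without it.

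Library quality touched some of these values. Of the prostate epithelial markers reported here, Hoxb13 (29.2 to 45.1 CPM) and Krt8 (18.6 to 23.9 CPM) were present, whereas Epcam had no count in any library and Krt18 and Cdh1 stayed under 0.28 CPM. In IFN2000 replicate 2, 8 of 10 T cell markers were detected and summed to 17.1 CPM, against 0.491 CPM in IFN2000 replicate 3 and 0.133 to 2.13 CPM in the other groups. Ifng, which is itself a T cell gene, had 117 counts in that library and 0 in its partner, and Cd8a had none in any library. Combo200 replicate 3 had 9 counts of Ifng and 7 of Gzmb, where Combo200 replicate 2 had 0 of each. In IFN200 replicate 1, 7 of 7 heart muscle markers summed to 7.60 CPM, against 1.15 CPM in replicate 2. Markers also moved with Oxali. The heart muscle markers summed to 3.06 to 5.94 CPM in the libraries with Oxali and to 0.834 to 1.27 CPM in those without it, apart from IFN200 replicate 1. With Oxali most of these counts were those of Tnnt2 (68 to 125), while Actc1, Myl2, Myl7, Tnni3 and Nppa had 2 or fewer in every such library. The 5 fibroblast markers summed to 20.9 to 25.6 CPM against 9.95 to 17.4 CPM, and most of these counts were those of Pdgfra. Col1a2, Col3a1 and Dcn were at 2 counts or fewer in every library. The 4 pan-leukocyte markers summed to 4.25 to 6.03 CPM in the libraries with Oxali and to 1.21 to 2.28 CPM in those without it, apart from 9.94 CPM in IFN2000 replicate 2. Of these, Ptprc and Laptm5 had 3 counts or fewer in every library with Oxali, whereas Cd52 had 77 to 103 counts with Oxali and 22 to 37 without it. The 9 macrophage markers summed to 16.5 to 18.9 CPM against 12.6 to 15.7 CPM, and most of these counts were those of Cd14 (225 to 409). Adgre1, C1qa and Itgam were at 0 in every library. Csf1r had 8 to 19 counts in the libraries with Oxali and 0 in those without it. Lyz2 had 3 to 11 counts with Oxali and 0 or 1 without it. The rank correlation across genes between gene length and the log ratio to Ctrl was -0.30 and -0.16 in IFN2000 and -0.01 to 0.15 in the other libraries. The part of these differences in the results was not tested, and calls that rest on IFN2000 are given with and without replicate 2. Nothing in the labels says that the 2 libraries of a group came from separate cultures, so that p-values measure the spread between these libraries, which may be technical.

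Oxali alone raised the mRNA of Casp8, Gsdmd and Ripk1, and lowered that of Ripk3. Against Ctrl, 4 of the 5 well expressed genes rose and 1 fell by the quasi-likelihood test of edgeR at an adjusted p under 0.05, where 67.6% of all tested genes passed (34.8% higher and 32.8% lower), so that this count is not by itself a feature of these genes. Gsdmd stood at 1.22 and 1.93 CPM in Ctrl and at 3.64 and 4.34 CPM in Oxali. These pairs did not overlap, and the rise was 2.50-fold (log2 fold change 1.32, SE 0.221, edgeR adjusted p 2.63e-05). Casp8 went from 39.0 and 41.8 CPM to 54.6 and 59.6 CPM, a rise of 1.41-fold (log2 0.50, SE 0.0593, edgeR adjusted p 3.69e-07). Ripk1 went from 45.3 and 45.8 CPM to 58.9 and 61.2 CPM, a rise of 1.32-fold (log2 0.40, SE 0.0496, edgeR adjusted p 6.86e-07). For both genes every Oxali library lay above every Ctrl library.

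Ripk3, the kinase that phosphorylates MLKL, was the gene that went down. Its levels were 20.6 and 18.6 CPM in Ctrl and 14.2 and 13.1 CPM in Oxali, without overlap, and it fell by 0.52 on the log2 scale (SE 0.0822, edgeR adjusted p 1.42e-05). It was also lower in each combination than in IFNγ alone. In Combo200 the libraries stood at 13.6 and 14.7 CPM, and Ripk3 fell by 0.48 against IFN200 (SE 0.0769, edgeR adjusted p 1.64e-05). In Combo2000 they stood at 15.0 and 14.4 CPM, with a fall by 0.47 on the log2 scale against IFN2000 (SE 0.0757, edgeR adjusted p 1.44e-05). With IFNγ alone Ripk3 stood between 19.5 and 20.7 CPM, and the log2 difference from Ctrl had a 95% interval of -0.15 to 0.17 at 200 pg and -0.10 to 0.22 at 2000 pg.

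Mlkl, which carries out the last step of necroptosis, differed little under Oxali alone. It stood at 30.4 and 29.9 CPM in Ctrl and at 32.5 and 35.6 CPM in Oxali, a rise of 0.17 on the log2 scale (SE 0.0592, edgeR adjusted p 0.0136). The pairs did not overlap, but this call was lost without Ctrl replicate 1 (log2 0.18, adjusted p 0.0501), Ctrl replicate 2 (0.16, 0.0836) or Oxali replicate 2 (0.10, 0.221), and in DESeq2 (adjusted p 0.0969).

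IFNγ alone at 200 pg called none of the 5 genes against Ctrl in edgeR (0.114% of all tested genes passed) and none in DESeq2. At an unadjusted p under 0.05, 1 of the 5 passed, Casp8, where 801 of all 13177 tested genes (6.08%) did. Casp8 stood at 46.0 and 43.7 CPM against 39.0 and 41.8 CPM in Ctrl, with a log2 difference of 0.15 (edgeR unadjusted p 0.0242, adjusted p 0.762). For Mlkl the 95% interval of the log2 difference was -0.04 to 0.21, and for Ripk1 it was -0.00 to 0.21. Gsdmd had a wider interval, -0.11 to 0.94, since it rested on 60 counts in Ctrl and 97 counts in IFN200.

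At 2000 pg, IFNγ alone raised Mlkl, Gsdmd and Casp8, or 3 of the 5 genes, with 16.9% of all tested genes passing (8.39% higher and 8.47% lower). Mlkl stood at 43.2 and 40.9 CPM, above both Ctrl libraries, with a log2 fold change of 0.48 (SE 0.0568, edgeR adjusted p 1.37e-05). Without IFN2000 replicate 2, which carried the T cell marker reads, this rise was 0.45 (edgeR adjusted p 0.000212). Gsdmd stood at 3.60 and 2.81 CPM and had a log2 fold change of 1.01 (SE 0.228, edgeR adjusted p 0.00519). Casp8 stood at 48.0 and 47.1 CPM and had a log2 fold change of 0.23 (SE 0.0603, edgeR adjusted p 0.0117). With a correction for gene length and GC content these log2 fold changes were 0.44 for Mlkl, 0.97 for Gsdmd and 0.20 for Casp8, and all 3 calls were kept. The calls of Gsdmd and Casp8 were lost without IFN2000 replicate 2, where the values were 0.82 for Gsdmd (adjusted p 0.0745) and 0.23 for Casp8 (adjusted p 0.0695). They were also lost without Ctrl replicate 1, with 0.74 for Gsdmd (adjusted p 0.106) and 0.19 for Casp8 (adjusted p 0.159).

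Ripk1 was not called with IFNγ alone at either dose. It stood at 46.2 and 46.6 CPM in IFN2000 against 45.3 and 45.8 CPM in Ctrl, with a log2 difference of 0.03 and a 95% interval of -0.08 to 0.13. Between the IFNγ doses, Mlkl was higher at 2000 pg than at 200 pg by 0.40 on the log2 scale (SE 0.0544, edgeR adjusted p 5.84e-05), and by 0.36 without IFN2000 replicate 2 (edgeR adjusted p 0.00117). Gsdmd was higher by 0.60 (SE 0.204, edgeR adjusted p 0.0419), which made 2 of the 5 genes where 22.3% of all passed. The Gsdmd call was lost without any of 6 libraries. Its value was 0.44 without IFN200 replicate 1 (adjusted p 0.281) and 0.41 without IFN2000 replicate 2 (adjusted p 0.356), and 0.59 to 0.60 without either library of Combo200 or Combo2000 (adjusted p 0.0525 to 0.0546).

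**Figure D2:**
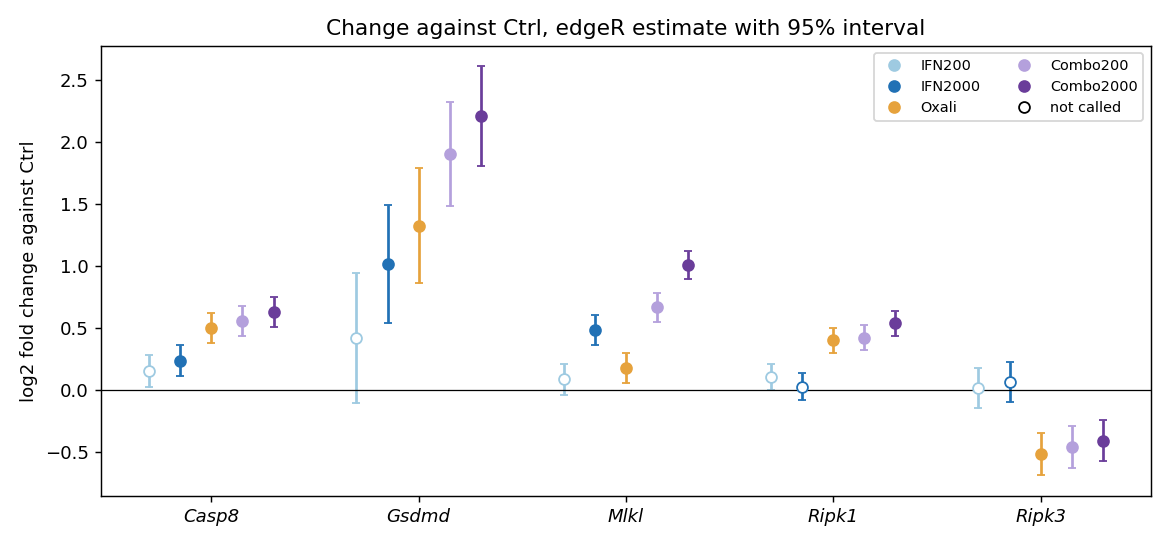
Log2 fold change against Ctrl (vertical axis) of Casp8, Gsdmd, Mlkl, Ripk1 and Ripk3 in the 5 treated groups, as edgeR estimates with 95% intervals, filled where the adjusted p was under 0.05. The comparisons share the same 2 Ctrl libraries, and Gsdmd has both the largest estimates (2.20 in Combo2000) and the widest intervals.

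With Oxali and IFNγ together, Casp8, Gsdmd, Mlkl and Ripk1 rose and Ripk3 fell against Ctrl, and the genes at or near 0 were detected. These comparisons share Ctrl with those above and were made against it side by side. In Combo200 the log2 fold changes were 0.55 for Casp8, 1.90 for Gsdmd, 0.66 for Mlkl, 0.42 for Ripk1 and -0.46 for Ripk3, with edgeR adjusted p of 3.64e-05 or lower. In Combo2000 they were 0.63 for Casp8, 2.20 for Gsdmd, 1.00 for Mlkl, 0.54 for Ripk1 and -0.41 for Ripk3, with edgeR adjusted p of 0.00012 or lower. Thus 4 of the 5 genes were higher and 1 was lower in each combination, where 68.7% of all tested genes passed in Combo200 (35.6% higher and 33.1% lower) and 69.2% in Combo2000 (35.7% higher and 33.5% lower). Gsdmd reached 6.28 and 5.64 CPM in Combo200 and 7.45 and 7.24 CPM in Combo2000, and all 4 libraries lay above those of every other group.

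Against Oxali alone, the addition of IFNγ moved Mlkl at both doses. Mlkl stood at 48.1 and 47.6 CPM in Combo200 and at 61.1 and 59.9 CPM in Combo2000, against 32.5 and 35.6 CPM in Oxali. The difference was 0.49 on the log2 scale at 200 pg (SE 0.0531, edgeR adjusted p 4.24e-06) and 0.83 at 2000 pg (SE 0.0514, edgeR adjusted p 2.80e-10), without overlap in either case. Mlkl was the only one of the 5 genes called at 200 pg, where 1.83% of all tested genes passed. Gsdmd was not called at 200 pg (edgeR adjusted p 0.0798), but its log2 difference was 0.58 with a 95% interval of 0.245 to 0.909. At 2000 pg, 2 of the 5 were called, with 4.36% of all passing, and the other was Gsdmd (log2 0.88, SE 0.152, edgeR adjusted p 0.000821).

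Casp8, Ripk1 and Ripk3 were not called in either combination against Oxali. For Casp8 the 95% interval of the log2 difference was -0.06 to 0.17 at 200 pg and 0.02 to 0.24 at 2000 pg. For Ripk1 it was -0.07 to 0.12 and 0.04 to 0.23, and for Ripk3 -0.12 to 0.23 and -0.06 to 0.28. The intervals of Casp8 and Ripk1 at 2000 pg lay above 0, but their edgeR adjusted p were 0.243 and 0.106.

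Against IFNγ alone, the addition of Oxali moved most of these genes, as it did genes in general. At 200 pg, 4 of the 5 genes were higher and 1 was lower, where 69.9% of all passed (36.5% higher and 33.5% lower). At 2000 pg, 4 were again higher and 1 lower, where 72.3% passed (38.5% higher and 33.8% lower). Mlkl was higher by 0.58 (SE 0.0530, edgeR adjusted p 7.45e-09) at 200 pg and by 0.52 (SE 0.0492, edgeR adjusted p 9.65e-09) at 2000 pg on the log2 scale. Gsdmd was higher by 1.48 (SE 0.178, edgeR adjusted p 3.73e-07) and by 1.19 (SE 0.156, edgeR adjusted p 1.07e-06). Without IFN2000 replicate 2 the differences at 2000 pg were 0.55 for Mlkl, 1.37 for Gsdmd, 0.39 for Casp8, 0.49 for Ripk1 and -0.45 for Ripk3, with edgeR adjusted p of 0.000213 or lower. Between the combinations, Mlkl was higher at 2000 pg than at 200 pg by 0.34 on the log2 scale (SE 0.0479, edgeR adjusted p 0.000154). It was the 1 gene called of the 5, where 1.37% of all tested genes passed.

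The interaction asks whether the log2 effect of IFNγ differed with and without Oxali. It was positive and called for Mlkl at 200 pg (0.41, SE 0.0797, edgeR adjusted p 0.0162) and at 2000 pg (0.35, SE 0.0772, edgeR adjusted p 0.0175). That was 1 of the 5 genes at each dose, where 0.698% and 2.72% of all tested genes passed. The 200 pg call was lost in DESeq2 (adjusted p 0.131) and with a block for the replicate number (0.40, adjusted p 0.0723). It was also lost without Ctrl replicate 1 (0.39, adjusted p 0.149), Ctrl replicate 2 (0.41, 0.156), IFN200 replicate 1 (0.37, 0.154), IFN200 replicate 2 (0.42, 0.0522), Oxali replicate 1 (0.34, 0.0710), Combo200 replicate 2 (0.40, 0.0723) or Combo200 replicate 3 (0.41, 0.109). The 2000 pg call was lost in DESeq2 (adjusted p 0.156) and without Ctrl replicate 1 (0.33, 0.161), Ctrl replicate 2 (0.35, 0.0931), Oxali replicate 1 (0.29, 0.110) or Combo2000 replicate 2 (0.33, 0.0832). Without IFN2000 replicate 2 it was 0.38 (edgeR adjusted p 0.0201).

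On the linear scale the same comparison can be made by adding the separate changes of Oxali and IFNγ to the Ctrl level. For Mlkl this sum was 35.9 CPM at 200 pg and 46.0 CPM at 2000 pg, and both combination libraries lay above it at each dose. For Gsdmd the sums were 4.54 and 5.62 CPM, and the libraries again lay above them (5.64 to 6.28 and 7.24 to 7.45 CPM), although the interaction on the log2 scale was 0.16 with a 95% interval of -0.47 to 0.79 at 200 pg and -0.13 with -0.71 to 0.45 at 2000 pg. Casp8 lay around its sum of 61.5 CPM at 200 pg and just below its sum of 64.2 CPM at 2000 pg. Ripk1 lay below its sum of 63.4 CPM at 200 pg and above its sum of 60.8 CPM at 2000 pg, and Ripk3 lay around 13.8 and 14.4 CPM. These sums are a description without a test.

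**Figure D3:**
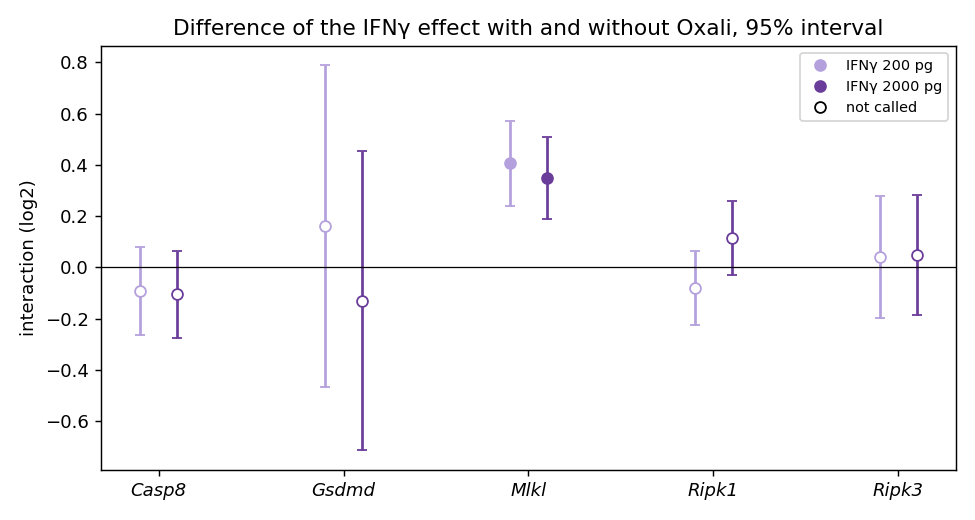
Interaction on the log2 scale (vertical axis), which is the IFNγ effect with Oxali minus the IFNγ effect without it, for 5 genes at 200 pg and 2000 pg, with 95% intervals and filled points where the adjusted p was under 0.05. Mlkl is above 0 at both doses (0.41 and 0.35), and the intervals of the other 4 genes include 0.

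The balance of executioner and kinase was read as a ratio within each library. The ratio of Mlkl to Ripk3 in reads per kb was 1.47 and 1.60 for Ctrl, 1.60 and 1.62 for IFN200 and 2.08 and 2.04 for IFN2000. With Oxali it was 2.28 and 2.71, with Combo200 3.52 and 3.22 and with Combo2000 4.05 and 4.15. The groups did not overlap, although the higher Ctrl and the lower IFN200 library came out alike to the digits given. The ratio of Ripk1 to Ripk3 formed 2 levels instead, 0.605 to 0.713 in the 6 libraries without Oxali and 1.11 to 1.29 in the 6 with it. The ratio of Casp8 to Ripk3 did likewise, with group means of 1.64 to 1.85 without Oxali and 3.33 to 3.37 with it. These ratios were not tested between groups, because the smallest two-sided p of an exact permutation test on 2 against 2 libraries is 0.333.

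**Figure D4:**
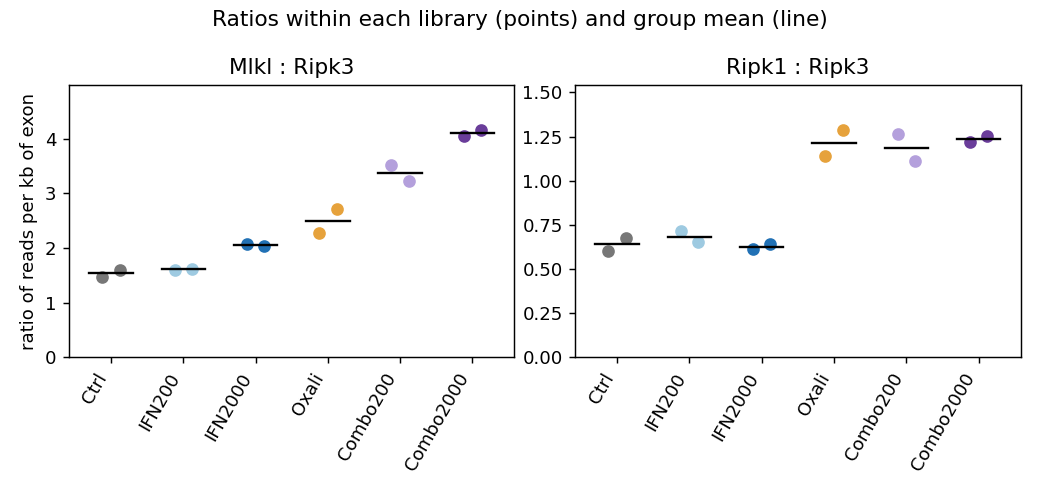
Ratio of reads per kb of exon of Mlkl to Ripk3 (left) and of Ripk1 to Ripk3 (right) in each library (points) and the group mean (line), from 0, in the 6 groups. The Mlkl ratio climbs from a mean of 1.54 in Ctrl to 4.10 in Combo2000, while the Ripk1 ratio has a mean of 0.626 to 0.682 without Oxali and 1.19 to 1.24 with it.

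Zbp1, the nucleic acid sensor, was detected almost only when Oxali and IFNγ were combined. It had no count in either library of Ctrl, IFN200 or Oxali, which allows up to 3 counts in each (0.130 to 0.167 CPM), and it had 1 and 0 counts in IFN2000, the 1 count being in the library with T cell marker reads. In Combo200 it had 9 and 4 counts, and in Combo2000 it had 58 and 37 counts (2.15 and 1.59 CPM). The Combo2000 libraries therefore lay above all others, and the observed counts of Combo200 lay above all those without a combination. Set against 3 counts in each reference library, the observed Zbp1 level in Combo2000 was 11.9-fold that of Ctrl and 13.5-fold that of Oxali. These folds leave out the counting error of Combo2000 itself. Against the single count of IFN2000 the ratio was 86.6, with a 95% counting interval of 15.2 to 3456. Set against 3 counts in IFN2000 replicate 3 alone, the observed level was 14.1-fold.

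At the lower IFNγ dose, the observed Zbp1 level in Combo200 was also set against 3 counts in each reference library. It was 1.67-fold that of Ctrl, 2.03-fold that of IFN200 and 1.89-fold that of Oxali. The counting error of Combo200 is left out and 1 of its libraries had only 4 counts, so these are not lower limits. From Combo200 to Combo2000 the ratio was 7.11, with a counting interval of 3.96 to 13.8. No interaction could be estimated for Zbp1, since 3 of the groups had no count.

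Casp4, which senses cytosolic lipopolysaccharide, stayed at a few counts in all but Combo2000. It had 0 counts in both Ctrl libraries, 1 and 0 with IFN200, 4 and 2 with IFN2000, and 2 and 1 with Oxali. It had 4 and 3 counts with Combo200 and 20 and 12 with Combo2000 (0.741 and 0.517 CPM). The Combo2000 libraries lay above all others, and the other treated groups overlapped one another in part. In Combo2000 its observed level was 4.01-fold that of Ctrl, set against 3 counts in each Ctrl library and without the counting error of Combo2000. The ratio to Oxali was 9.07, with a counting interval of 2.84 to 46.3, and the ratio to Combo200 was 4.45, with an interval of 1.93 to 11.9. The ratio to IFN2000 was 4.86, with a counting interval of 2.01 to 14.2, and to IFN2000 replicate 3 alone it was 7.14, with an interval of 1.82 to 61.5. No fold is given for Combo200 against Ctrl, since 4 and 3 counts are near the limit of 3 that a count of 0 allows.

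Casp1, the caspase of the canonical inflammasome, was near the limit of these libraries. It had 0 counts in the libraries of Ctrl and Oxali, 0 and 1 with IFN200, 2 and 3 with IFN2000, 5 and 2 with Combo200 and 7 in each of Combo2000. The Combo2000 libraries lay above all others, and Combo200 and IFN2000 overlapped. Set against 3 counts in each reference library, its observed level in Combo2000 was 1.75-fold that of Ctrl and 1.98-fold that of Oxali. The counting error of the 7 counts in each Combo2000 library is left out, so these are not lower limits. The ratio to IFN2000 was 2.55, with a counting interval of 0.869 to 9.05, which includes 1, and to IFN2000 replicate 3 alone it was 2.08, with an interval of 0.581 to 11.3. Counting intervals and limits leave out every error but that of counting, and without molecular identifiers reads cannot be taken as independent molecules.

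**Figure D5:**
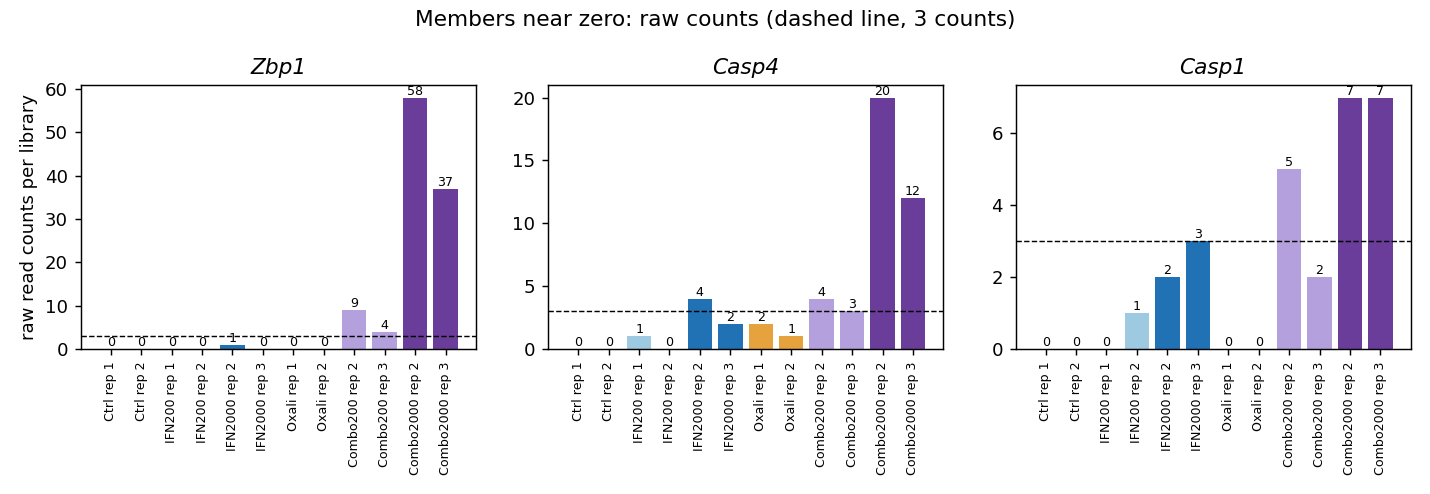
Raw read counts (vertical axis) of Casp1, Casp4 and Zbp1 in each of the 12 libraries (horizontal axis), with a dashed line at 3 counts. Combo2000 holds the highest counts of all 3 genes, with 58 and 37 for Zbp1, 20 and 12 for Casp4 and 7 and 7 for Casp1.

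The genes whose log2 CPM followed each of these genes most closely over the 12 libraries are given as a description. The libraries share treatments and scaling, so that many genes correlate. Mlkl was closest to Parp9 (Pearson r 0.989 among 11205 genes) and Gbp5 (0.986), of which Gbp5 is an IFNγ-inducible GTPase and had a mean of 0 CPM in Ctrl, 0.655 CPM in IFN2000, 0.189 CPM in Oxali and 48.8 CPM in Combo2000. Zbp1 was closest to Gm4951 (0.978) and Stat3 (0.967), and Casp4 to Plaat3 and Inpp5j (both 0.960). Gsdmd was closest to Parp3 (0.987) and Tmem106a (0.986), Casp8 to Ankrd35 (0.994) and Rhbdd1 (0.987), and Ripk1 to Sdccag8 and Tank (both 0.989). Ripk3 was closest to Suclg1 (0.991) and the pseudogene Eif3s6-ps2 (0.989).

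The wider pathways were read from lists of 14 apoptosis, 25 pyroptosis and 23 necroptosis genes. The lists include the 8 genes above, which are left out of the counts that follow. Against Ctrl, 67.6% of all tested genes were called with Oxali (34.8% higher), 16.9% in IFN2000 (8.39% higher) and 69.2% in Combo2000 (35.7% higher), and the lists are to be read against these shares. Of 11 further tested apoptosis genes, 5 rose and 4 fell with Oxali, 1 rose and 3 fell in IFN2000, and 4 rose and 3 fell in Combo2000. Their median log2 fold change was 0.05, -0.04 and 0.03 in these comparisons, against 0.02, 0.00 and 0.02 over all tested genes. The largest fall with Oxali was that of Apaf1, the scaffold of the apoptosome, from 53.1 and 49.8 CPM to 32.0 and 31.7 CPM, where it fell by 0.69 on the log2 scale (SE 0.0519, edgeR adjusted p 4.69e-10). In Combo2000 it fell by 0.66 (SE 0.0505, edgeR adjusted p 5.57e-10). In IFN2000 the largest rise was that of Fadd, the adaptor of death receptors (0.28, SE 0.0704, edgeR adjusted p 0.0110). That call was lost without IFN2000 replicate 2 (0.23, adjusted p 0.128), without Ctrl replicate 1 (0.23, 0.129) and in DESeq2 (0.0737). Xiap, an inhibitor of caspases, fell by 0.24 in IFN2000 (SE 0.0429, edgeR adjusted p 0.000722), and by 0.20 without IFN2000 replicate 2 (edgeR adjusted p 0.0139).

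Of the 25 pyroptosis genes only 10 had enough counts, and 8 of these were further genes. Among the 8, 4 rose and 1 fell with Oxali, 1 rose and 1 fell in IFN2000, and 4 rose and 1 fell in Combo2000. Their medians were 0.22, -0.06 and 0.22. Casp12, a further caspase of the inflammatory group, was the largest rise in IFN2000 (log2 1.02, SE 0.182, edgeR adjusted p 0.00084), and without IFN2000 replicate 2 the rise was 0.94 (edgeR adjusted p 0.0137). It stood at 1.89 and 1.67 CPM in Ctrl, at 2.43 and 2.47 CPM with IFN200 and at 3.81 and 3.39 CPM with IFN2000. With Oxali it stood at 6.31 and 7.59 CPM, with Combo200 at 18.0 and 17.5 CPM and with Combo2000 at 23.9 and 24.6 CPM, and no groups overlapped. It was higher in Combo2000 than in Oxali by 1.80 on the log2 scale (SE 0.0898, edgeR adjusted p 7.29e-12). With Oxali the largest rise was that of Mefv, which encodes the inflammasome sensor pyrin, from 10 and 3 counts in Ctrl to 28 and 52 counts with Oxali. Mefv passed the filter only through groups with Oxali and so had to differ between groups, and it is counted among the 4 that rose. The largest falls were those of Dpp9, a protease that restrains an inflammasome, by 0.34 on the log2 scale with Oxali (SE 0.0452, edgeR adjusted p 1.76e-06) and by 0.32 in Combo2000 (SE 0.0445, edgeR adjusted p 2.48e-06). Nek7, a partner of NLRP3, fell by 0.26 in IFN2000 (SE 0.0374, edgeR adjusted p 0.000134), and by 0.22 without replicate 2 (edgeR adjusted p 0.00279).

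Of 18 further tested necroptosis genes, 9 rose and 3 fell with Oxali, 2 rose and 1 fell in IFN2000, and 11 rose and 5 fell in Combo2000, with medians of 0.10, 0.04 and 0.29. The largest rise with Oxali was that of the death receptor Fas, which had 1 count in each Ctrl library and 34 and 23 counts in Oxali, and 79 and 75 counts in Combo2000. Fas passed the filter only through groups with Oxali and so had to differ between groups, and it is counted in the 9 and the 11 that rose. Ticam1, the adaptor of TLR3, fell by 0.26 on the log2 scale in IFN2000 (SE 0.0689, edgeR adjusted p 0.0132). That call was lost without IFN2000 replicate 2 (-0.25, adjusted p 0.0708), without Ctrl replicate 1 (-0.14, 0.295), with a block for the replicate number (-0.19, 0.104) and in DESeq2 (0.0616). Against Oxali, 6 of the 18 were higher in Combo2000, where 3.37% of all tested genes were higher, and the list was chosen with earlier results of these data known. Of the 6, Rbck1 (log2 0.17) lost its call in DESeq2 (adjusted p 0.195), with a block for the replicate number (0.276) and with upper-quartile scaling (0.0571). Fas lost its call in DESeq2 (adjusted p 0.286). Both also lost it in some fits without 1 library. In the same comparison 0 of the 11 further apoptosis genes were called. Of the 8 further pyroptosis genes, Casp12 was higher and Nek7 was lower, where 4.36% of all tested genes were called in either direction. Nek7 (log2 -0.14, SE 0.0368, edgeR adjusted p 0.0260) lost its call with a block for the replicate number (0.0988) and in some fits without 1 library.

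The interaction at 2000 pg was called for 3 of the 18, all in the positive direction, where 2.12% of all tested genes were called in that direction, and these 3 were named after their values were seen. No interaction was called at either dose among the 11 further apoptosis genes or the 8 further pyroptosis genes. Rnf31, a ubiquitin ligase that limits cell death at the TNF receptor, stood at 25.1 and 28.6 CPM in Ctrl, 33.3 and 33.8 CPM in IFN2000, 27.6 and 26.1 CPM in Oxali and 51.6 and 53.1 CPM in Combo2000, with an interaction of 0.64 (SE 0.0866, edgeR adjusted p 0.00017). Without IFN2000 replicate 2 it was 0.63 (edgeR adjusted p 0.000516). Tlr3, the endosomal receptor of double-stranded RNA, had an interaction of 0.47 (SE 0.0822, edgeR adjusted p 0.00248), or 0.39 without IFN2000 replicate 2 (adjusted p 0.0171), and reached 63.5 and 62.0 CPM in Combo2000 from 28.3 and 28.7 CPM in Ctrl. Adar, which edits double-stranded RNA and holds ZBP1 in check, had an interaction of 0.38 (SE 0.0682, edgeR adjusted p 0.00345), or 0.35 without IFN2000 replicate 2 (adjusted p 0.0147), and reached 74.9 and 75.7 CPM from 48.0 and 50.4 CPM. The call of Adar was lost without Ctrl replicate 2 (0.32, adjusted p 0.0590). At 200 pg, 1 of the 18 was called, Rnf31 (0.53, SE 0.0893, edgeR adjusted p 0.00458). It was lost without Ctrl replicate 2 (0.42, adjusted p 0.113), Oxali replicate 2 (0.49, 0.0523) or Combo200 replicate 3 (0.49, 0.0642), and with a block for the replicate number (0.49, 0.0525).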

How the data were processed

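Raw counts of reads for each gene in each library were deposited by the authors. The labels describe a stranded mRNA library kit. The study's methods name alignment to GRCm38 with GENCODE gene models and counting with featureCounts, whereas the submitters' processing notes list STAR 2.7.3a and RSEM 1.3.0; whether counting used the strand is not given in the sources used here.

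After TMM scaling, the quasi-likelihood test in edgeR 4.0.16 (R 4.3.3) was run on the counts in 1 model with a mean for each of 6 groups, over all 12 libraries and without covariates, after filterByExpr (minimum count 10, minimum total count 15) had kept 13177 of 55216 genes. Tests are two-sided and p-values were adjusted by Benjamini-Hochberg over all tested genes in a comparison, with calls at an adjusted p under 0.05. A limit of 3 counts in a library of 18749975 to 25931516 counts is 0.111 to 0.167 CPM, for counting error only. Counting intervals are exact 95% intervals of a ratio of summed counts. Alternatives were RLE and upper-quartile scaling, no filter or a mean of at least 50 counts, a replicate block, a length and GC correction, only the groups compared, DESeq2 1.42.0, and leaving out each library, which assumes that a lone library varies like the others. The fit was tested on simulated data.

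Besides the 8 genes, the text names, in each wider list, the called genes with the largest rise and fall with Oxali, IFN2000 and Combo2000 against Ctrl, and for each gene the 2 genes closest in Pearson r among those with a mean of at least 1 CPM. Some marker genes are not reported here. Genes and lists were chosen with earlier results of these data known. No pairing by replicate number was seen. The difference between the 2 libraries of a group correlated over genes at -0.05 to 0.02 between groups that share both numbers. Other groups were not compared, so this cannot show that libraries with the same number were prepared apart.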

Additional observations from a re-analysis of the deposited data

Results flagged for a closer look

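Mlkl was the gene among the 5 well expressed ones whose IFNγ effect differed with and without Oxali by a test of the difference itself. The interaction was 0.41 on the log2 scale at 200 pg and 0.35 at 2000 pg. Both calls were lost in DESeq2 (adjusted p 0.131 and 0.156), and the 200 pg call also with a block for the replicate number. Some fits without 1 library lost them too, with values of 0.34 to 0.48 and 0.29 to 0.42 over these fits. Both combination libraries of each dose lay above all 4 libraries of the single treatments at that dose, which by itself does not show an interaction. The agent labels of the single treatments name other treatments than the titles used here, and both values rest on the titles.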

How the results depend on the processing

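With other settings than leaving out a library, 508 log2 fold changes of the 5 well expressed genes kept their direction and call, 7 lost it, 3 gained it and 1 changed sign. The exception in sign was Ripk3 in IFN2000 against IFN200, -0.0144 with the length and GC correction, which was not called before or after. Gsdmd in IFN2000 against IFN200 lost its call with the length and GC correction (0.54) and with only the groups compared (0.59), and it had no adjusted p in DESeq2. In DESeq2 neither interaction was called for any of the 5 genes. The cause was not tested. With a block for the replicate number, Gsdmd lost its call in IFN2000 against IFN200 and Mlkl lost its interaction call at 200 pg. The block changed no other call among the 5 genes. Among the 5 well expressed genes, gained calls were Gsdmd in Combo200 against Oxali with no filter (0.58) and with only the groups compared (0.57), and Ripk1 in Combo2000 against Oxali with the length and GC correction (0.15).

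Leaving out 1 library, the number called of the 5 well expressed genes was 1 to 3 for IFN2000 against Ctrl and 1 to 2 for IFN2000 against IFN200. It was 0 to 1 for each interaction. For Combo2000 against Combo200 it stayed at 1, which was Mlkl. Changes of sign were all in values not called. These were Casp8 (-0.00423 to 0.12), Ripk1 (-0.00952 to 0.0607) and Ripk3 (-0.00414 to 0.12) in Combo200 against Oxali, Ripk3 in IFN200 (-0.0570 to 0.0874) and IFN2000 (-0.00233 to 0.14) against Ctrl, and the interactions of Gsdmd (-0.23 to 0.43 at 200 pg and -0.52 to 0.14 at 2000 pg) and Ripk3 (-0.0394 to 0.11 at 200 pg and -0.0369 to 0.11 at 2000 pg).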
